A study of Mus musculus with 6 samples.

Results

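Translation initiation factors are the proteins that load the initiator methionyl-tRNA and the mRNA onto the small ribosomal subunit, find the start codon and let the large subunit join. The eIF4F complex recruits capped mRNA, eIF2 carries the initiator tRNA, eIF3 organises the small subunit, and eIF5, eIF5B and eIF6 act around start codon recognition and subunit joining. Cells tune the process mainly by phosphorylating eIF2 and by eIF4E-binding proteins, which hold the cap-binding protein away from eIF4G, and hepatocytes, which secrete most plasma proteins, carry a heavy load of protein synthesis.

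The members were the protein-coding genes whose GENCODE M21 symbol begins with Eif and a digit, without the eIF2alpha kinases named Eif2ak. The rule found 51 genes among the 35709 in the deposited table, and all 51 were in it. They were compared between AML12 cells (a line of mouse hepatocytes) kept 72 h with silencing RNA aimed at Uhrf2 (siUhrf2) and AML12 cells kept 72 h with a scrambled silencing RNA (siCtrl). Both groups received their RNA with Lipofectamine RNAiMAX, each held 3 libraries of total RNA, and both come from this 1 cell line. Uhrf2 encodes a nuclear ubiquitin ligase of the UHRF family, and the comparison asks which transcripts differ once its own transcript is lowered.

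Uhrf2 itself had 2942, 2805 and 2777 normalized counts in siUhrf2 and 8899, 9058 and 9018 in siCtrl, so 31.6% of the control level was left (exact two-sided permutation p = 0.10, the smallest that 3 against 3 libraries can give). The libraries held between 44.6 and 53.1 M estimated reads. Of the 11 hepatocyte markers looked up, 9 reached a mean of 1 FPKM, Krt8, Krt18, Trf and Rbp4 among them, but Alb and Apoa1, which define the mature hepatocyte, stayed under it. The summed level of the 5 macrophage and leukocyte markers was 2.92 to 3.79 FPKM in siUhrf2 and 7.46 to 9.18 FPKM in siCtrl, with Adgre1 listed at 0 in every library. The 4 cholangiocyte markers summed to 552 to 602 FPKM in siUhrf2 and 302 to 336 FPKM in siCtrl. Most of that sum was Krt19, and Epcam was listed at 0. In this list Krt19 and Sox9 were called higher (log2 fold changes 0.99 and 0.17) and Krt7 was called lower (-0.16). Of 5 fibroblast and stellate markers 0 reached 1 FPKM (sums of 0.822 to 1.33 FPKM in siUhrf2 and 0.815 to 1.09 FPKM in siCtrl), and of 4 endothelial markers only Egfl7 did (sums of 2.22 to 3.37 FPKM in siUhrf2 and 2.92 to 3.39 FPKM in siCtrl). The 11 hepatocyte markers summed to 3289 to 3486 FPKM in siUhrf2 and 3045 to 3280 FPKM in siCtrl. The higher sum rested on the keratin genes Krt8 and Krt18. They averaged 1033 and 1168 FPKM in siUhrf2 and 723 and 838 FPKM in siCtrl. Trf and Rbp4 averaged 804 and 243 FPKM in siUhrf2 and 1017 and 431 FPKM in siCtrl. In this list 3 were called higher (Krt8, Krt18 and Hnf4a, log2 fold changes 0.53, 0.49 and 0.09). The 4 called lower were Ambp, Rbp4, Foxa3 and Trf (log2 fold changes -1.55, -0.81, -0.38 and -0.32). Whether these differences bear on the initiation factor transcripts was not tested, and in bulk RNA fewer cells of a type and less RNA per cell cannot be told apart. The labels do not tie replicates to separate cultures, and the p-values then cover only the spread between these libraries, which may be technical.

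Of the 51 genes, 47 reached a mean of 1 FPKM over the 6 libraries and were tested, and 4 did not. Levels of the 47 ran from 2.94 FPKM for Eif4ebp3 to 1121 FPKM for Eif4g2, with a median of 89.3 FPKM, against a median of 19.8 FPKM over all 11343 genes tested. Among the 4 below, Eif2s3y, the Y-linked copy of the eIF2 gamma gene, was listed at 0 in every library. Eif4e1b, a cap-binding paralog, had 0, 4.07 and 4.03 normalized counts in siUhrf2 and 0, 3.72 and 4.64 in siCtrl. Eif5a2, the second eIF5A gene, had 3.27, 11.2 and 9.06 in siUhrf2 and 3.14, 1.84 and 3.71 in siCtrl. Eif4e3, another cap-binding paralog, lay just under the threshold at a mean of 0.754 FPKM, with 121, 124 and 115 normalized counts in siUhrf2 and 59.0, 77.5 and 63.1 in siCtrl, groups that did not overlap. Just inside it stood Eif4ebp3 at 2.94 FPKM and Eif3j1 at 4.19 FPKM.

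Most of the initiation factor transcripts that changed were higher in siUhrf2, and nearly all by less than 1.5-fold. At an adjusted p under 0.05 (limma on log2 of the normalized count plus 1, adjusted over all genes tested), 26 of the 47 changed, 21 higher and 5 lower, and 21 did not pass. The lower count was 8 with equal totals, with quantile normalization and with the replicate number as a block, each with 21 higher. Over all genes tested 61.0% were called, 29.9% higher and 31.1% lower, so the share of members called was 55.3%, somewhat under the background, while 44.7% of members were higher and 10.6% lower. Their median log2 fold change was 0.07, against -0.01 over all genes. Because members are more abundant than most genes, genes at a mean of at least 10 FPKM were also counted. There 55.6% of 45 members were called, 46.7% higher and 8.89% lower. Among all genes at that level 64.7% were called, 32.4% higher and 32.2% lower. Of the 47, 8 were called at 1.2-fold or more, where 33.2% of all genes were, and 1, Eif4ebp1, at 1.5-fold or more, where 8.90% were. The groups did not overlap in 31 of the 47, or 66.0%, and in 66.7% of all genes. Summed over the 51 members the level was 9626, 10038 and 9913 FPKM in siUhrf2 and 9044, 9171 and 9101 FPKM in siCtrl, or 8.27% more.

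**Figure D1:**
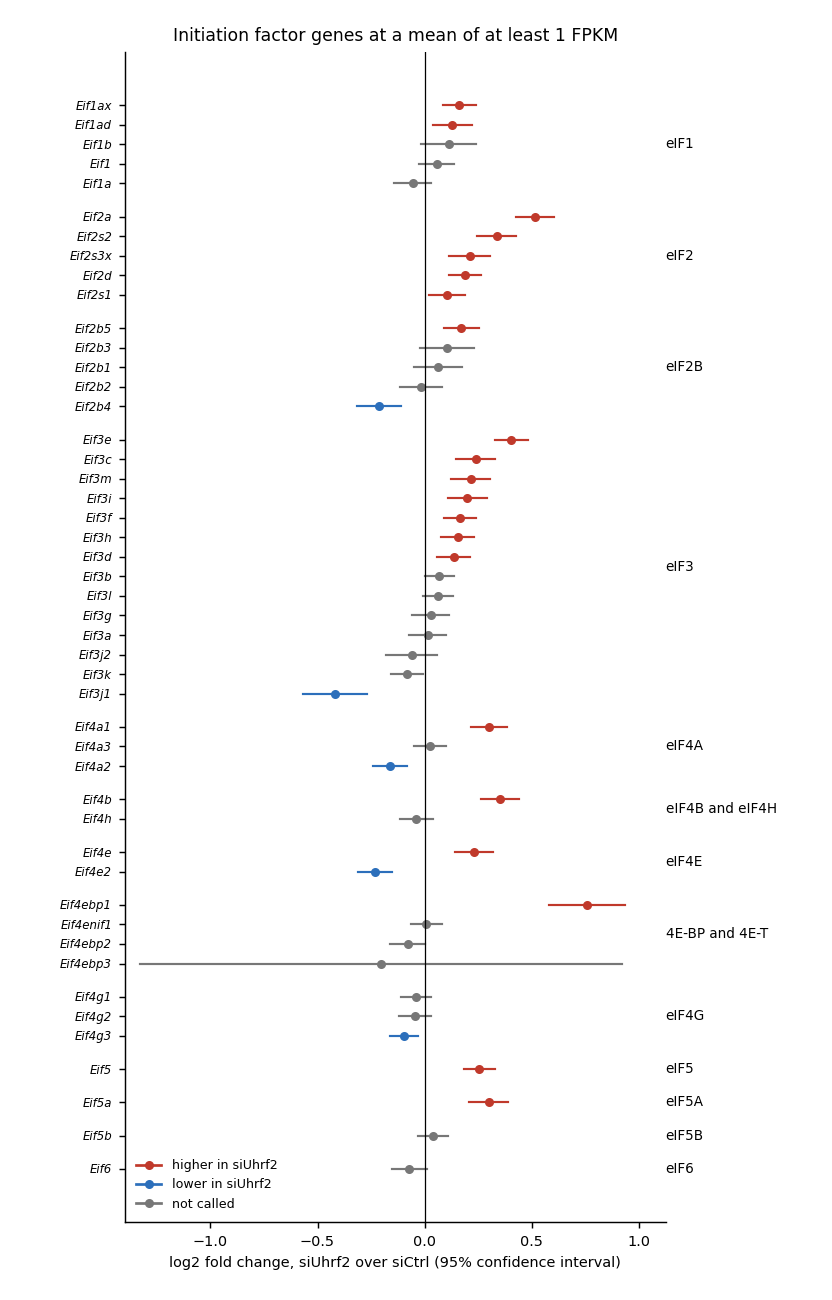
Log2 fold change of siUhrf2 over siCtrl (x axis) for the 47 initiation factor genes at a mean of at least 1 FPKM, grouped by factor (right) and sorted within it. Points are limma estimates, lines their 95% confidence intervals, and colour gives the call at an adjusted p under 0.05. Eif2a and Eif2d stand with eIF2 by name only. Most called genes lie right of 0, and Eif4ebp1 lies farthest at 0.76.

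Replicate 1 was the lowest of the 3 siUhrf2 libraries in 40 of the 47 members, or 85.1%, and in 43.4% of all genes tested. Leaving it out gave 25 higher and 5 lower members.

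**Figure D2:**
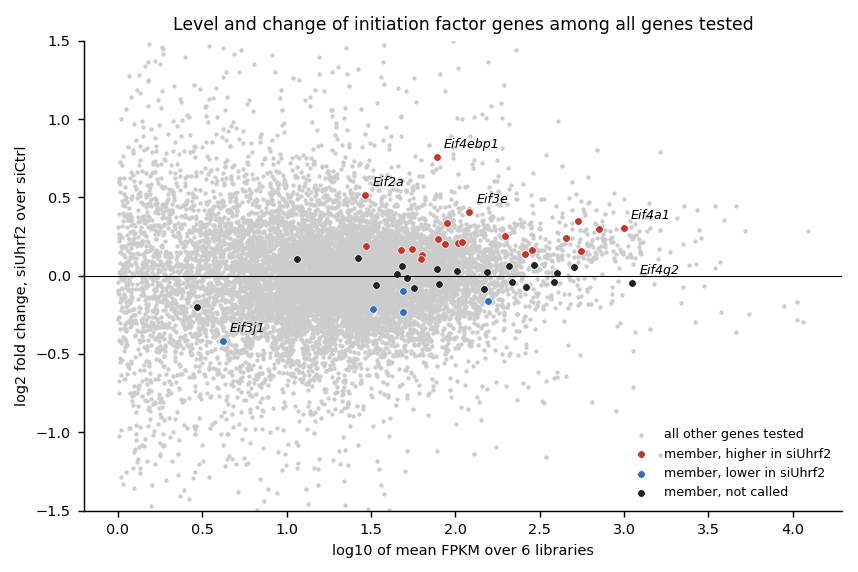
Log10 of the mean FPKM over the 6 libraries (x axis) against the log2 fold change of siUhrf2 over siCtrl (y axis) for all 11343 genes tested, with the 47 initiation factor genes in colour by call. The axis stops at 1.5 in both directions, and 101 genes beyond it are not drawn. Members sit toward the abundant side, and Eif4a1 at 998 FPKM is among those higher in siUhrf2.

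Of the 5 genes of start codon scanning, 2 rose, Eif1ax and Eif1ad, and 3 did not pass. Eif1 and its paralog Eif1b encode eIF1, which guards the choice of start codon, and Eif1a and the X-linked Eif1ax encode eIF1A, which works beside it on the small subunit. Eif1ax, on chromosome X, plus strand, 159372178 to 159389928 (GRCm38, as all positions here), had 6588, 7117 and 6876 normalized counts in siUhrf2 and 6078, 6063 and 6254 in siCtrl. Each siUhrf2 library was above each siCtrl library, and the gene rose 1.12-fold (log2 fold change 0.16, SE 0.036, limma adjusted p = 0.00209). Eif1a had 6798, 7363 and 7259 in siUhrf2 and 7578, 7137 and 7547 in siCtrl, with overlapping groups and a log2 difference of -0.06 (limma adjusted p = 0.234). The ratio of Eif1ax to Eif1a, in FPKM, was 0.643, 0.641 and 0.629 in siUhrf2 and 0.532, 0.564 and 0.550 in siCtrl.

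Eif1ad encodes a protein with an eIF1A-like domain. It had 3961, 4251 and 4395 normalized counts in siUhrf2 and 3848, 3886 and 3779 in siCtrl, groups that did not overlap, and rose 1.09-fold (limma adjusted p = 0.0164). The call was lost without siUhrf2 replicate 2 or 3 or without siCtrl replicate 3 (limma adjusted p = 0.0574, 0.0863 and 0.0639). Eif1ad shares 428 exonic bases with Banf1 on the opposite strand, at 223 FPKM the more abundant gene, which rose by 0.28 on the log2 scale. Use of strand in the authors' counting is not given in these sources, so overlapping genes on opposite strands are uncertain. Eif1, the most abundant of the group at 503 FPKM, and Eif1b had log2 differences of 0.06 and 0.11 and did not pass (limma adjusted p = 0.205 and 0.125), though both passed without siUhrf2 replicate 1 (limma adjusted p = 0.0350 and 0.0372).

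All 3 measured eIF2 subunit genes rose. The complex binds GTP and the initiator tRNA, and phosphorylation of its alpha subunit slows initiation in stress. Eif2s2, the beta subunit gene, lies on the minus strand of chromosome 2 from 154871410 to 154892935. It had 12557, 13768 and 14123 normalized counts in siUhrf2 and 10658, 10779 and 10568 in siCtrl. The siCtrl libraries lay close together, all siUhrf2 libraries were above them, and the rise was 1.26-fold (log2 fold change 0.34, SE 0.042, limma adjusted p = 3.16e-05). Eif2s3x, the X-linked gamma subunit gene, had 9269.9, 10455 and 10372 in siUhrf2 and 8591, 8706 and 8682 in siCtrl, again without overlap, and rose 1.16-fold (limma adjusted p = 0.00138). Eif2s1, the alpha subunit gene, had 5497, 5999.7 and 5924 in siUhrf2 and 5301, 5508 and 5375 in siCtrl, with replicate 1 of siUhrf2 inside the siCtrl range. Its rise of 1.08-fold passed the test (limma adjusted p = 0.0327) but not without siUhrf2 replicate 2 or 3 or siCtrl replicate 1 or 3 (limma adjusted p = 0.136, 0.119, 0.0878 and 0.0900). The FPKM ratio of Eif2s2 to Eif2s1 was 1.51, 1.52 and 1.58 in siUhrf2 and 1.33, 1.30 and 1.30 in siCtrl, so the beta transcript gained on the alpha transcript in every siUhrf2 library.

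Eif2a and Eif2d share the name but are not eIF2 subunits. Eif2a encodes eIF2A, a separate tRNA-binding factor, and spans 58525821 to 58557501 of chromosome 3, plus strand. It had 3117, 3257 and 3329 normalized counts in siUhrf2 and 2322, 2279 and 2192 in siCtrl, and its rise of 1.43-fold was second among the 47 tested members (log2 fold change 0.51, SE 0.041, limma adjusted p = 9.76e-07). Eif2a shares 72 exonic bases with Serp1 on the opposite strand, which rose by 0.39 on the log2 scale. Eif2d encodes eIF2D, which can deliver tRNA and split post-termination complexes. It had 3660.1, 3663 and 3664 in siUhrf2 and 3126, 3240.1 and 3279 in siCtrl and rose 1.14-fold (limma adjusted p = 5.55e-04).

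The exchange factor eIF2B, which reloads eIF2 with GTP, had changes in both directions. Of its 5 subunit genes 1 rose, 1 fell and 3 did not pass. Eif2b5, the catalytic epsilon subunit gene, had 4254, 4562 and 4430.0 normalized counts in siUhrf2 and 3823, 4029.6 and 3908 in siCtrl and rose 1.13-fold (limma adjusted p = 0.00196). Eif2b4, the delta subunit gene of the regulatory core, had 1449.7, 1461 and 1518 in siUhrf2 and 1786, 1703 and 1648 in siCtrl, all siUhrf2 libraries below all siCtrl libraries, with a log2 fold change of -0.21 (SE 0.046, limma adjusted p = 0.00185). It shares 204 exonic bases with Snx17 on the opposite strand, which rose by 0.24 on the log2 scale. Eif2b1, Eif2b2 and Eif2b3, the alpha, beta and gamma subunit genes, had log2 differences of 0.06, -0.02 and 0.10. The summed eIF2B level was 201 ± 2.91 FPKM in siUhrf2 and 199 ± 0.224 FPKM in siCtrl (SD, n = 3 each), whereas the eIF2-named genes summed to 17.9% more in siUhrf2.

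Of the 14 eIF3 genes, 7 were higher in siUhrf2, 1 was lower and 6 were not called, with a median log2 fold change of 0.10. The share called was 57.1%, against 61.0% of all genes tested (29.9% higher and 31.1% lower). The groups did not overlap in 78.6% of the eIF3 genes and in 66.7% of all genes. The complex is the largest of the factors and holds the small subunit, the tRNA carrier and the mRNA recruiter together. Its subunit transcripts spanned a wide range of levels, from 559 FPKM for Eif3h and 454 FPKM for Eif3c to 4.19 FPKM for Eif3j1.

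**Figure D3:**
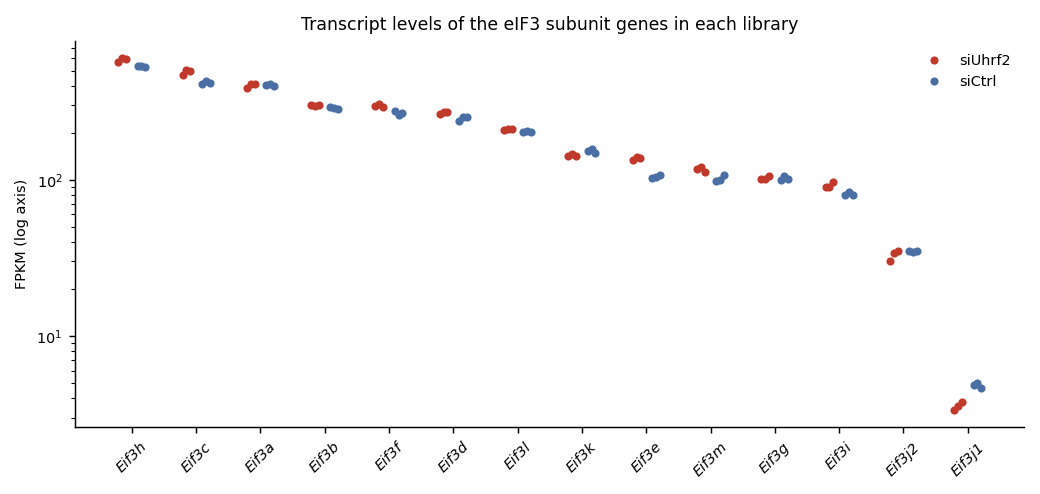
Transcript level in FPKM (y axis, log scale) of the 14 eIF3 subunit genes (x axis, ordered by mean level) in each of 3 siUhrf2 libraries (red, left) and 3 siCtrl libraries (blue, right). Eif3e and Eif3c lie higher in all siUhrf2 libraries, Eif3j1 lies lower, and Eif3a, Eif3g and Eif3j2 overlap between the groups.

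Eif3e, whose product sits in the outer arm of the complex, rose most among the subunits. It lies on the minus strand of chromosome 15 from 43250058 to 43282719, and had 14545, 15617 and 15296 normalized counts in siUhrf2 and 11178, 11464 and 11698 in siCtrl. The groups were far apart, and the rise was 1.32-fold (log2 fold change 0.40, SE 0.036, limma adjusted p = 2.18e-06). Eif3c, a core subunit gene, had 36313, 39881 and 39211 in siUhrf2 and 31986, 33591 and 32179.6 in siCtrl and rose 1.18-fold (limma adjusted p = 3.84e-04). Eif3m, Eif3i, Eif3f, Eif3h and Eif3d, all subunit genes, rose 1.16-fold, 1.15-fold, 1.12-fold, 1.11-fold and 1.10-fold, each without overlap between the groups. Their transcripts averaged 109, 86.5, 283, 559 and 259 FPKM over the 6 libraries.

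Eif3a, the largest subunit and the scaffold of the core, had 44599.6, 48307 and 48438 normalized counts in siUhrf2 and 46571, 47332 and 45858 in siCtrl, with a log2 difference of 0.02 and a 95% confidence interval of -0.07 to 0.10 (limma adjusted p = 0.756). The ratio of Eif3e to Eif3a, in FPKM, was 0.344, 0.341 and 0.333 in siUhrf2 and 0.253, 0.256 and 0.269 in siCtrl. Eif3b and Eif3l had log2 differences of 0.07 and 0.06, did not overlap between the groups and did not pass (limma adjusted p = 0.0766 and 0.101), though both passed without siUhrf2 replicate 1 (limma adjusted p = 0.0306 and 0.0269). Eif3g stood at 0.03, and Eif3k at -0.08 missed the threshold narrowly (limma adjusted p = 0.0507), and passed as lower without siUhrf2 replicate 2 (limma adjusted p = 0.0486).

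The loosely held j subunit is encoded by Eif3j1 and Eif3j2. Eif3j1, on chromosome 2, plus strand, 122028546 to 122056598, had 493, 528 and 563 normalized counts in siUhrf2 and 703, 733 and 681 in siCtrl. All siUhrf2 libraries lay below all siCtrl libraries, and the log2 fold change of -0.42 was the lowest among the 47 tested members (SE 0.069, limma adjusted p = 2.59e-04). Eif3j2, the more abundant copy, had 3507, 3982 and 4145 in siUhrf2 and 4068, 3999 and 4042 in siCtrl, with overlapping groups (limma adjusted p = 0.345). The copies are hard to separate: 53.6% of the 31-base words in Eif3j1 transcripts and 94.9% of those in Eif3j2 transcripts occur in transcripts of other genes, and Eif3j1 also shares 1107 exonic bases with Spg11 on the opposite strand. The level of each copy is therefore uncertain.

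Within the cap-binding machinery, Eif4a1 and Eif4a2 were called in opposite directions, as were Eif4e and Eif4e2. The genes of eIF4B and eIF4H, of the eIF4E-binding proteins and of eIF4G held no such pair. The helicase eIF4A unwinds the mRNA leader, and Eif4a1 and Eif4a2 encode its closely related forms. Eif4a1, on the minus strand of chromosome 11 from 69666936 to 69672423, had 50206, 54444 and 53392 normalized counts in siUhrf2 and 41773, 42881 and 43554 in siCtrl. Its rise of 1.23-fold was larger than the spread between replicates (log2 fold change 0.30, SE 0.039, limma adjusted p = 4.30e-05). Eif4a2, on chromosome 16, had 7439, 7946 and 7983 in siUhrf2 and 8499, 8810.0 and 8801 in siCtrl and fell, with a log2 fold change of -0.16 (limma adjusted p = 0.00226). The FPKM ratio of Eif4a1 to Eif4a2 was 7.48, 7.59 and 7.41 in siUhrf2 and 5.45, 5.40 and 5.49 in siCtrl. Of the 31-base words in Eif4a1 transcripts 31.1% occur in other genes. The share was 40.2% for Eif3d, 35.6% for Eif2s3x, 29.4% for Eif3h and 28.7% for Eif3m, so of the 21 members called higher these 5 stood at 20% or more and their levels are less certain. Eif4a2 shares 194 exonic bases with Rfc4 on the opposite strand, which rose by 0.23 on the log2 scale. Eif4a3, which works in the exon junction complex rather than in initiation, had a log2 difference of 0.02 (limma adjusted p = 0.548).

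**Figure D4:**
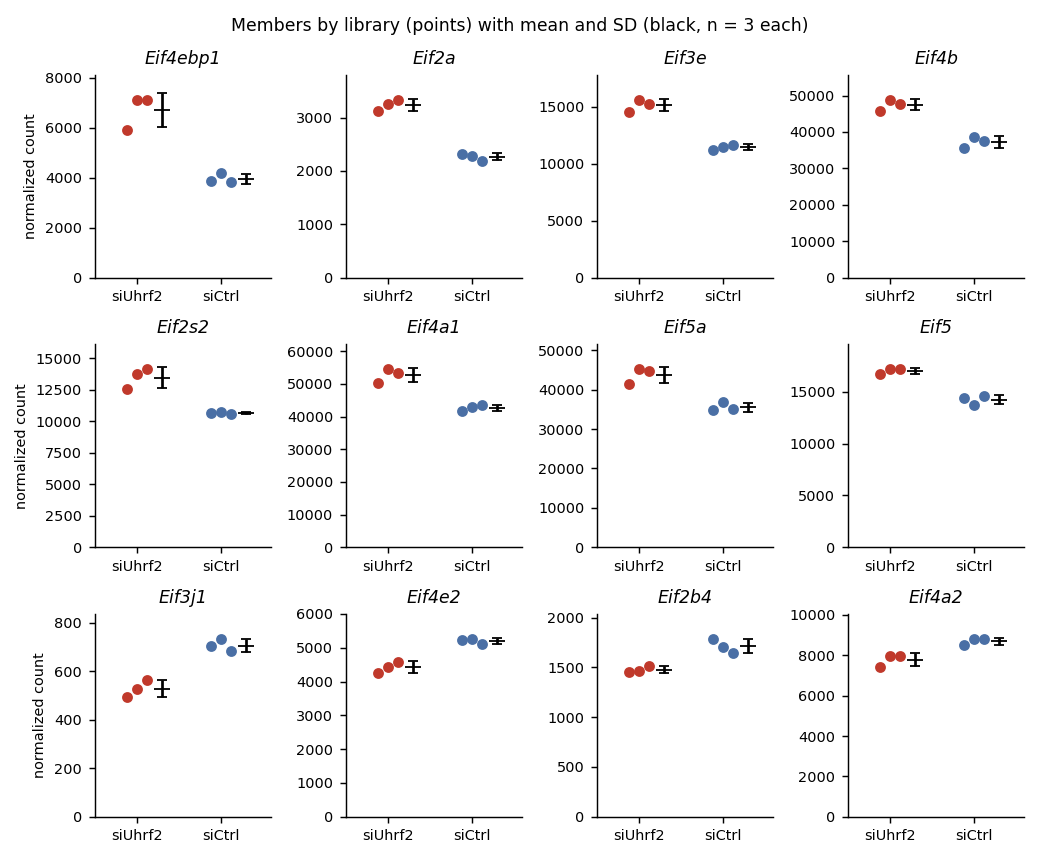
Normalized count (y axis, from 0) of 12 members in each library, siUhrf2 in red and siCtrl in blue, with the mean and SD in black (n = 3 each). The first 8 genes are higher in every siUhrf2 library, and Eif3j1, Eif4e2, Eif2b4 and Eif4a2 are lower in every siUhrf2 library.

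Of the helicase cofactors, Eif4b rose and Eif4h did not pass. Eif4b spans 102073773 to 102097173 of chromosome 15, plus strand, and had 45867, 48787 and 47769.8 normalized counts in siUhrf2 and 35576, 38608 and 37541 in siCtrl. The groups did not overlap and the rise was 1.28-fold (log2 fold change 0.35, SE 0.040, limma adjusted p = 1.67e-05). Eif4h had 18575, 18959 and 18641 in siUhrf2 and 18421, 19709.8 and 19574 in siCtrl, a log2 difference of -0.04 (95% confidence interval -0.11 to 0.04).

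Eif4e, which encodes the cap-binding protein itself, rose, and Eif4e2, which encodes the cap-binding repressor 4EHP, fell. Eif4e, on chromosome 3, plus strand, 138526179 to 138559696, had 5772, 6361 and 6354 normalized counts in siUhrf2 and 5202, 5273 and 5259.8 in siCtrl, a rise of 1.17-fold (log2 fold change 0.23, SE 0.040, limma adjusted p = 4.00e-04). Eif4e2, on chromosome 1, plus strand, 87213914 to 87240488, had 4244, 4429 and 4591 in siUhrf2 and 5222, 5259 and 5105 in siCtrl, with a log2 fold change of -0.23 (SE 0.036, limma adjusted p = 1.78e-04). Neither pair of groups overlapped, and the FPKM ratio of Eif4e to Eif4e2 was 1.84, 1.95 and 1.88 in siUhrf2 and 1.35, 1.36 and 1.40 in siCtrl.

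Eif4ebp1 moved most of the 47 tested members. It encodes the eIF4E-binding protein that mTORC1 phosphorylates to release eIF4E, and spans 27260329 to 27276674 of chromosome 8, plus strand. It had 5908, 7107 and 7105 normalized counts in siUhrf2 and 3877, 4177 and 3812 in siCtrl, or 97.4 ± 9.10 FPKM in siUhrf2 and 58.0 ± 2.67 FPKM in siCtrl (SD, n = 3 each). Replicate 1 was the lowest siUhrf2 library and still lay above every siCtrl library, and the gene rose 1.69-fold (log2 fold change 0.76, SE 0.075, limma adjusted p = 7.36e-05). Its paralog Eif4ebp2 had 9437, 9836 and 10100.1 normalized counts in siUhrf2 and 9944, 10725 and 10367 in siCtrl, with a log2 difference of -0.08 (limma adjusted p = 0.0882). It passed as lower without siCtrl replicate 1 (limma adjusted p = 0.0333).

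Eif4ebp3 was weakly expressed and scattered, with 116, 145 and 48.5 normalized counts in siUhrf2 and 81.4, 105 and 147 in siCtrl, and 67.3% of its exonic bases lie in exons of another gene on the same strand. Eif4enif1, which encodes the eIF4E transporter, had a log2 difference of 0.01 (limma adjusted p = 0.843). In FPKM, Eif4ebp1 stood above Eif4e in siUhrf2 and below it in siCtrl, and the ratio was 1.08, 1.17 and 1.18 in siUhrf2 and 0.783, 0.832 and 0.762 in siCtrl. With all 3 eIF4E-binding protein genes summed, it was 1.78, 1.85 and 1.84 in siUhrf2 and 1.59, 1.70 and 1.62 in siCtrl. The pairs for these ratios were chosen with the fold changes known, and no test was run on them. Of 12 ratios computed, 11 did not overlap between the groups, and Eif5 over Eif2b5 did, at 3.74, 3.57 and 3.68 in siUhrf2 and 3.58, 3.25 and 3.55 in siCtrl.

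**Figure D5:**
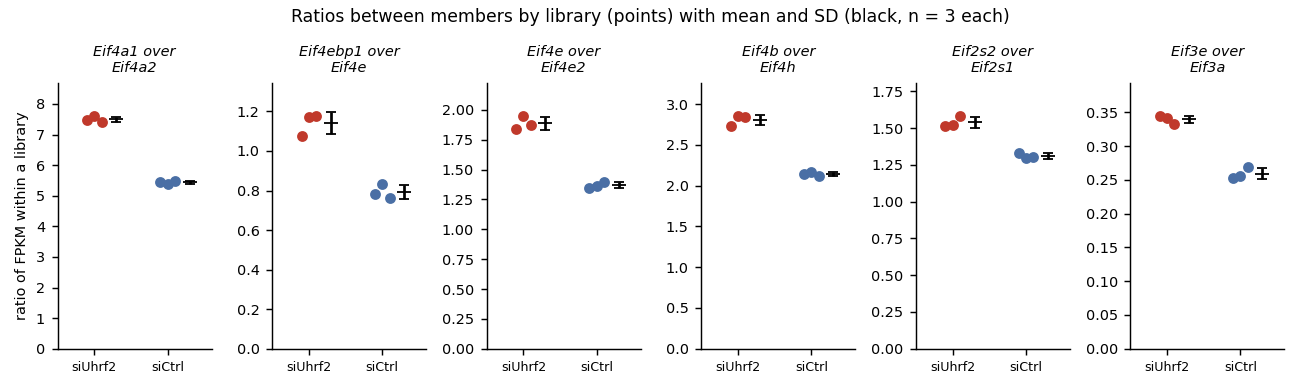
Ratio of FPKM values within a library (y axis, from 0) for 6 of the 12 ratios computed between initiation factor genes, siUhrf2 in red and siCtrl in blue, with the mean and SD in black (n = 3 each). In all 6 pairs the ratio is higher in every siUhrf2 library, for example 7.41 to 7.59 in siUhrf2 and 5.40 to 5.49 in siCtrl for Eif4a1 over Eif4a2.

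Of the 3 scaffold genes of eIF4G, 1 fell and 2 did not pass. Eif4g3 had 7278, 7085 and 7086 normalized counts in siUhrf2 and 7705, 7686 and 7541 in siCtrl and fell, with a log2 fold change of -0.10 (SE 0.030, limma adjusted p = 0.0159). The call was lost without siUhrf2 replicate 2 or 3 (limma adjusted p = 0.0580 and 0.0618). Eif4g1, the main scaffold, and Eif4g2, which encodes the DAP5 protein without an eIF4E-binding site and was the most abundant member, did not pass (limma adjusted p = 0.295 and 0.272). Every siUhrf2 library was nonetheless below every siCtrl library in both, with a log2 difference of -0.04 in each. Under quantile normalization both passed as lower, with log2 fold changes of -0.09 and -0.16.

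Of the remaining genes, Eif5 and Eif5a rose and Eif5b and Eif6 did not pass. Eif5 encodes the protein that stimulates GTP hydrolysis by eIF2, and spans 111538016 to 111546752 of chromosome 12, plus strand. It had 16727, 17160.5 and 17161 normalized counts in siUhrf2 and 14400.0, 13768 and 14614 in siCtrl, and rose 1.19-fold (log2 fold change 0.26, SE 0.033, limma adjusted p = 4.73e-05). Eif5a, on the minus strand of chromosome 11 from 69916714 to 69921958, encodes the hypusine-bearing protein that mainly helps ribosomes elongate and terminate. It had 41543, 45159 and 44719 in siUhrf2 and 34809.6, 36908 and 35089 in siCtrl and rose 1.23-fold (log2 fold change 0.30, SE 0.041, limma adjusted p = 6.92e-05). In both genes each siUhrf2 library was above each siCtrl library.

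Eif5b, the subunit-joining GTPase gene, had 11569.9, 12154 and 12088 normalized counts in siUhrf2 and 11748, 11438 and 11632 in siCtrl, with a log2 difference of 0.04 and a 95% confidence interval of -0.03 to 0.11 (limma adjusted p = 0.295). It shares 1643 exonic bases with Rev1 on the opposite strand, which fell by 0.33 on the log2 scale. Eif6, whose product keeps free large subunits from joining, had 9509, 9945 and 9651 in siUhrf2 and 9806, 10693 and 10122 in siCtrl, with overlapping groups and a log2 difference of -0.07 (limma adjusted p = 0.111). It passed as lower without siCtrl replicate 1 (limma adjusted p = 0.0394).

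The DNA just before the annotated starts of the members was also compared. RefSeq gave a promoter window (250 bases before to 50 after a start, GRCm38.p6) for 37 of the 47 measured members, 17 of them higher, 5 lower and 15 not called. The E-box CACGTG, which reads the same on both strands and is bound by MYC and USF proteins, occurred in 9 of the 37 (24.3%) and in 12.2% of the 8605 tested genes with a window. Of the 9 holders 4 were higher in siUhrf2 (Eif3f, Eif4a1, Eif4e and Eif5a), 0 were lower and 5 were not called. Stretches from before a start are given below in the direction of the gene, with the E-box in capitals and cut at the first annotated exonic base. They show the E-box before a RefSeq start of Eif4a1, Eif5a and Eif3f, which rose. The same letters stand before a RefSeq start of Eif4g1 and Eif4h, which were not called. For Eif5a and Eif4g1 that start is internal. Their stretches lie inside the GENCODE M21 spans of the genes (chr11:69916714-69921958 and chr16:20668313-20692884).
Eif4a1, chr11:69672424-69672673, minus strand: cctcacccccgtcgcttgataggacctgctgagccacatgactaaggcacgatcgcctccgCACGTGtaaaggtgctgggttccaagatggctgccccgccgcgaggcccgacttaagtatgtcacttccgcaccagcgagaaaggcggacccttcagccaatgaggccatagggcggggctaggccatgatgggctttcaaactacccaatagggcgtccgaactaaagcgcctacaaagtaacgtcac
Eif5a, chr11:69921387-69921506, minus strand: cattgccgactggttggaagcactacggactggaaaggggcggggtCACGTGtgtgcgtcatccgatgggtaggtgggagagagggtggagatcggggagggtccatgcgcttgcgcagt
Eif3f, chr7:108934295-108934414, plus strand: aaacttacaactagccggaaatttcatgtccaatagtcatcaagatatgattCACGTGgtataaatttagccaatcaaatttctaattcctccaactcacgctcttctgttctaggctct
Eif4g1, chr16:20672607-20672722, plus strand: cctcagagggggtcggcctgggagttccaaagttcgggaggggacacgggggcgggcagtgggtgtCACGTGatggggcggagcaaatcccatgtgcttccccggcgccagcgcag
Eif4h, chr5:134639491-134639529, minus strand: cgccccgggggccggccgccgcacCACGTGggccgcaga

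In Eif4a1, Eif5a and Eif3f the E-box began 189, 74 and 68 bases before the RefSeq start used. In Eif4g1 and Eif4h it began 54 and 96 bases before the start used. In the stretch examined for Eif4e no E-box remained before the first annotated exonic base, so none is printed for that gene. The ETS core CCGGAAG, searched on both strands, occurred in 14 of the 37 members and in 22.2% of all genes with a window, with 6 holders higher, 2 lower and 6 not called. CCAAT, on both strands, occurred in 12 of the 37 and in 43.8% of all genes, with 6 higher, 1 lower and 5 not called. The NRF1 palindrome was found in 1 member, Eif3k, and in 2.59% of all genes, and TGATGNAA in 1, Eif2s3x, and in 2.61%, each on both strands. A run of C and then at least 5 bases of C or T, beginning within 10 bases of the start and read in the direction of transcription, the kind of leader that mRNAs of the translation machinery often carry, was found in 8 of the 37 members and in 22.7% of all genes, with 4 higher, 0 lower and 4 not called. Genes with several starts had more chances to match, and a match is a description of the letters, not of binding.

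Genes that act on these factors were counted from lists of kinases, partners and regulators. Among 13 that phosphorylate or dephosphorylate eIF2alpha or control that step, 5 were higher, 5 lower and 3 not called, with a median log2 fold change of 0.00. Eif2ak3, which encodes the endoplasmic reticulum kinase PERK, had 3037, 2859 and 2915 normalized counts in siUhrf2 and 4244, 4113 and 4115 in siCtrl, a log2 fold change of -0.50 (limma adjusted p = 5.16e-07). Impact, which restrains the kinase GCN2, had a log2 fold change of -0.89 (limma adjusted p = 1.14e-07). The catalytic phosphatase subunit gene Ppp1cb had 15794, 16894 and 16617 in siUhrf2 and 12046, 12297 and 12581 in siCtrl and rose 1.33-fold (limma adjusted p = 1.58e-06).

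Of 20 partners of the cap and poly(A) complex, 7 rose, 5 fell and 8 did not pass (median -0.02). Pabpc4 and Pabpc1, which encode poly(A)-binding proteins that bind eIF4G, rose 1.30-fold and 1.22-fold (limma adjusted p = 1.09e-04 and 7.52e-04). Gigyf1, whose product is known as a partner of 4EHP, had a log2 fold change of -0.24 (limma adjusted p = 1.24e-04). Its paralog Gigyf2 had -0.10 (limma adjusted p = 0.0129). Zfp598, from the same list, stood at 0.05 on the log2 scale and was not called (limma adjusted p = 0.303). Gigyf2 and Zfp598 were picked with their values known. The transcripts of 4EHP and both GIGYF genes were lower in siUhrf2, as were 31.1% of all genes tested.

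Of 13 genes of subunit joining, recycling and start codon choice, 7 were higher, 3 lower and 3 not called (median 0.11). Bzw2 and Bzw1 encode eIF5-mimic proteins, which compete with eIF5 for eIF2. Bzw2 had 3701, 3749 and 3568 normalized counts in siUhrf2 and 2357, 2549.7 and 2554 in siCtrl and rose 1.48-fold (limma adjusted p = 6.29e-07), whereas Bzw1 had 26591, 27684 and 27441 in siUhrf2 and 31298, 30736 and 31321 in siCtrl and fell, with a log2 fold change of -0.19 (limma adjusted p = 3.11e-04). Serbp1, which encodes an RNA-binding protein found on idle ribosomes, rose 1.24-fold (limma adjusted p = 1.06e-04), and Abce1, the ribosome recycling factor gene, 1.14-fold (limma adjusted p = 1.56e-04). Dohh, which completes the hypusine of eIF5A, fell, with a log2 fold change of -0.21 (limma adjusted p = 0.00148), while Dhps, which starts it, had a difference of 0.09 and did not pass (limma adjusted p = 0.0808).

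Among 21 mTORC1 and S6 kinase genes, 5 were higher, 9 lower and 7 not called (median -0.07). Mlst8, a subunit of the complex, had 985, 883 and 909 normalized counts in siUhrf2 and 1272, 1263 and 1260.2 in siCtrl, a log2 fold change of -0.45 (limma adjusted p = 2.14e-05). Tsc2, which encodes an inhibitor of mTORC1, had a log2 fold change of -0.27 (limma adjusted p = 3.10e-05). Lamtor1, part of the lysosomal anchor of the complex, rose 1.26-fold (limma adjusted p = 4.96e-05). Each of the 4 lists held genes called in both directions, and 61.0% of all genes tested were called.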

How the data were processed

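Total RNA of 3 siUhrf2 and 3 siCtrl samples of AML12 cells was sequenced, per the labels, and groups and replicate numbers come from the sample titles. In the table the authors deposited, each gene has 2 values a library, per the file headers: a normalized count, treated here as a signal because it is not whole-numbered, and an FPKM. No column of a sample was left unused (0 columns). The submitters' processing notes name kallisto 0.44.0, edgeR and GRCm38.p6, with no order. Their use of strand, annotation and filters is not given in these sources.

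Identifiers were matched to GENCODE M21 (35574 of 35709). The table holds no counts, as 62.8% to 64.7% of values above 0 were whole reads within 0.01, so the test was limma 3.58.1 (R 4.3.3) on the log2 of the deposited normalized count plus 1, with robust, trended variances. It ran on genes averaging 1 FPKM or more, with Benjamini-Hochberg adjustment over all of them, and fold changes understate those of low genes. Estimated reads are the library total divided by its most frequent low value. No pair of replicates matched within counting noise (chi-square over its degrees of freedom, 3.21 to 12.7). The fit was tested on simulated data. Words of 31 bases were compared between transcripts of M21. The 6 promoter patterns and the ratios were chosen after the data were seen, and members and lists with earlier results of these data known. Values per sample are given for up to 3 called members per factor with the largest change and for factors with 1 measured gene, and up to 3 called genes with the smallest adjusted p are named per partner list. Other members and partners described (paralogs, Gigyf2, Zfp598, Bzw1, Dohh, Dhps) were chosen after their values were seen. The symbol Gcn1 was matched through its synonym Gcn1l1. Alternatives were 4 scalings, pseudocounts, filters, variance models, a stricter threshold, the replicate number as a block, and fits without each library.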

Additional observations from a re-analysis of the deposited data

How the results depend on the processing

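The fit without replicate 1 of both groups was chosen after seeing the data. Of the 26 called members 23 kept call and direction under all alternatives that tested them (Eif3j1 was not tested at 5 FPKM), and Eif1ad, Eif2s1 and Eif4g3 lost the call under some, while 0 changed sign. The size of a change could move more than its call. Over the alternatives the log2 fold change ran from 0.13 to 0.28 for Eif3c and 0.19 to 0.34 for Eif5a. It ran from 0.27 to 0.38 for Eif4b, and from 0.49 to 0.56 for Eif2a. Of the 21 members not called in the main fit, 11 passed under at least 1 alternative. The number of members lower in siUhrf2, 5, was 8 with equal totals, with quantile normalization, with the replicate block and without replicate 1 of both groups. The added genes were, with equal totals and with the block, Eif3k, Eif4ebp2 and Eif6, with quantile normalization Eif4ebp2, Eif4g1 and Eif4g2, and without replicate 1 Eif4ebp2, Eif4h and Eif6. Upper quartile scaling gave 23 higher members, with Eif3b and Eif3l added. The members' median of 0.07 was 0.10 at a mean of at least 5 FPKM, a filter that leaves out Eif3j1 and Eif4ebp3. Leaving out 1 library gave 19 to 25 higher and 4 to 7 lower members, a median of 0.07 to 0.09, 6010 to 7047 changed genes and a log2 fold change of Uhrf2 of -1.69 to -1.65. Over all alternatives 5354 to 7435 genes changed, 19 to 26 members were higher, and scalings moved the median of all genes to between -0.02 and 0.01. The replicate numbers pair nothing in the labels. Deviations of same-numbered libraries correlated at 0.18, 0.24 and 0.07, each library correlated best with its own number, and the block moved the count of changed genes from 6919 to 7248. Few reads limit Eif4e1b, Eif5a2 and Eif4ebp3.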
